A study of Triticum aestivum with 6 samples.

Results

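The early light-inducible proteins (ELIPs) of bread wheat were followed in roots without and with nitrate. The genes were those whose best protein match in the deposited annotation is named an early light-inducible protein, 35 of 83219 genes in the table. 20 of them matched the low molecular mass form HV90 of barley and 15 the high molecular mass form HV58. The names are best matches to barley proteins, not curated wheat symbols. The family was singled out because members stood among the largest falls between these same samples. Its differences between the groups are therefore given as a description, without p-values.

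RNA was sequenced from roots of wild-type JW1 seedlings in 6 libraries, 3 without nitrate (0N) and 3 with nitrate (2N). All seedlings germinated for 3 days, lost their endosperm, grew for 3 days with 2 mM nitrate and then for 2 days without nitrogen. For the last 3 hours the 0N seedlings stood in medium with 2 mM potassium chloride and the 2N seedlings in medium with 2 mM of the potassium nitrate salt, which the labels spell KNO. Added chloride thus differed together with nitrate, and the effects of the ions cannot be told apart. Every sample carries the tissue label root, but also a cell line label that reads wheat leaf tissue. Plants grew in white light for 16 hours a day. The replicates are numbered 1 to 3. Whether each came from its own culture or plants is not given in the labels, and p-values reflect the spread between these libraries, which may be technical.

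ELIPs are nuclear-encoded proteins of the thylakoid membrane and belong to the superfamily of chlorophyll-binding light-harvesting proteins. Unlike the antenna proteins they are not thought to harvest light. They accumulate briefly when seedlings green and under high light, cold or drying, and are thought to hold free chlorophyll and to protect the thylakoid from light damage. In barley the low and high molecular mass forms come from separate gene groups. Bread wheat is a hexaploid with A, B and D genomes, so most genes come in homoeologous copies. Most plastids of roots are not green, although roots kept in light can form chloroplasts.

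Libraries held 16208306 to 17645560 reads assigned to genes, with counts in 69457 to 70776 genes. In each library the 10 leading genes made up 1.68% to 2.20% of the counts. The Casparian strip membrane proteins, which mark the root endodermis, summed to 145 to 175 TPM (a share of all transcripts, corrected for gene length) in 0N and 194 to 247 TPM in 2N. All 7 of their genes had counts. Other root markers were lower in level, SCARECROW at 13.1 to 16.5 TPM in 0N and 17.2 to 18.3 TPM in 2N. SHORT-ROOT stood at 8.45 to 11.65 TPM in 0N and 10.2 to 12.9 TPM in 2N. The WUSCHEL-related homeobox 5 and 9 genes summed to 1.27 to 1.68 TPM in 0N and 0.84 to 1.79 TPM in 2N. 1 of 9 SCARECROW genes and 2 of 7 of these homeobox genes were at 0 in every library. Markers of green tissue were present too, the chlorophyll a-b binding proteins at 104 to 225 TPM in 0N and 54.0 to 92.6 TPM in 2N. The Rubisco small subunit stood at 59.4 to 157 TPM in 0N and 29.7 to 69.6 TPM in 2N, with overlap between the groups. 11 of 69 genes of the first green tissue marker and 6 of 17 of the second were at 0 in every library.

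Summed over all 35 genes, ELIP transcripts stood at 311, 321 and 506 TPM in the 0N libraries and at 39.2, 45.5 and 46.8 TPM in the 2N libraries. The groups did not overlap, and the lowest 0N library was 6.65 times the highest 2N library. The means were 380 ± 110 TPM and 43.9 ± 4.05 TPM (SD, n = 3), a ratio of 8.66. In CPM (counts relative to library size, scaled for library composition), the sum went from 205 ± 58.3 to 26.2 ± 2.43 (SD, n = 3), or -2.97 on the log2 scale for 2N against 0N. Without 0N replicate 3, the highest library, this was -2.72. Less RNA per cell and fewer cells that hold the RNA cannot be told apart in such bulk samples.

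34 of the 35 genes had a count in some library, and the mean of each of these was higher in 0N than in 2N. TraesCS5D02G226900 had 0 counts in every library. 18 genes, 8 of the low and 10 of the high form, passed the filter on low counts (edgeR's filterByExpr with a minimum count of 10), and 17 did not. The highest mean among the untested genes was 0.769 CPM in 0N. Of the 18, 17 were lower past the threshold of the fit over all genes (edgeR's quasi-likelihood test, adjusted p of 0.05), against 7.93% of the 54313 genes tested, and 0 were higher, against 7.57%. The gene short of the threshold was TraesCS1D02G315100. The groups did not overlap, with 0N above 2N, in all 18 tested genes and in 9 of the 17 others, against 16.2% of all tested genes. A gene at this level could pass the filter through the 0N libraries alone, and the family was chosen on this contrast, so nothing is read from these shares.

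**Figure D1:**
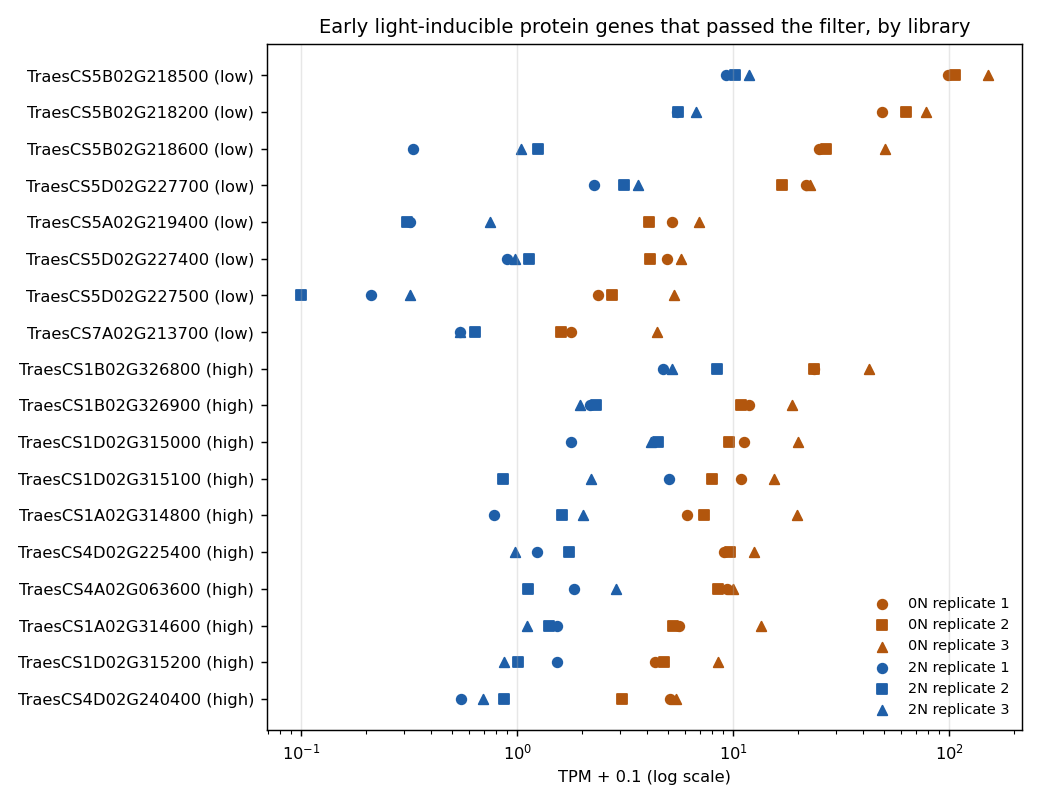
TPM plus 0.1 on a log axis for the 18 tested ELIP genes, 1 row a gene, low molecular mass form above high molecular mass form. Each point is 1 library, coloured by group and shaped by replicate. The 0N points lie to the right of the 2N points in every row, and 0N replicate 3 is the rightmost in every row.

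The low molecular mass form held the most abundant genes, and they share a cluster on chromosome 5B. TraesCS5B02G218500 stood at 98.4, 106 and 151 TPM in 0N and at 9.16, 10.1 and 11.8 TPM in 2N. In 0N its level lay above that of 97.1% of all tested genes. Its log2 fold change, 2N against 0N, was -3.42 ± 0.18 (SE of the fit). Its neighbour TraesCS5B02G218200 had 48.6, 63.2 and 78.0 TPM in 0N and 5.37, 5.46 and 6.61 TPM in 2N, with a log2 fold change of -3.34 ± 0.19. The gap between the groups was wide beside the spread within them for both genes.

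TraesCS5B02G218600, the next gene of the cluster, had the most negative log2 fold change of all 54313 tested genes. It stood at 24.8, 26.7 and 50.1 TPM in 0N and at 0.23, 1.15 and 0.94 TPM in 2N. The estimated counts behind these values were 195, 219 and 403 reads against 2, 10 and 8. The log2 fold change was -5.32 ± 0.52, a 40.0-fold lower level in 2N, and it ran from -5.71 to -4.90 when 1 library was left out. The remaining gene of this cluster, TraesCS5B02G217900, had 1 read in all.

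The low-form genes on 5A and 5D were lower in level. TraesCS5D02G227700 had 21.5, 16.7 and 22.6 TPM in 0N and 2.17, 3.02 and 3.52 TPM in 2N, with a log2 fold change of -2.70 ± 0.19. TraesCS5D02G227400 had 4.82, 4.02 and 5.63 TPM against 0.80, 1.03 and 0.88 TPM (log2 fold change -2.30 ± 0.25). These were the tested members of the 5D cluster that differed least between the groups. TraesCS5D02G227500, named here because of its rank after the values were seen, had the second most negative log2 fold change of all tested genes, -4.67 ± 0.62. It went from 2.27, 2.64 and 5.19 TPM in 0N to 0.11, 0 and 0.22 TPM in 2N, that is from 19 to 44.4 reads a library to at most 2. On the 5A cluster, TraesCS5A02G219400 alone passed the filter, with 5.09, 3.97 and 6.84 TPM in 0N and 0.22, 0.21 and 0.65 TPM in 2N (log2 fold change -3.72 ± 0.40).

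A low form on the group 7 chromosomes was near the limit of detection. TraesCS7A02G213700 had 1.68, 1.49 and 4.35 TPM in 0N and 0.44, 0.54 and 0.44 TPM in 2N, with a log2 fold change of -2.26 ± 0.50. TraesCS7D02G215700 and TraesCS7B02G120900 did not pass the filter. Their means were 1.44 and 0.453 TPM in 0N, and 0.0733 and 0 TPM in 2N.

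The high molecular mass form was led by the chromosome 1B pair. TraesCS1B02G326800 had 23.4, 23.6 and 42.6 TPM in 0N and 4.60, 8.30 and 5.08 TPM in 2N, with a log2 fold change of -2.21 ± 0.35. TraesCS1B02G326900 had 11.7, 10.8 and 18.7 TPM in 0N and 2.08, 2.22 and 1.86 TPM in 2N (-2.64 ± 0.23). Both had their highest value in 0N replicate 3, and the 2N libraries of the second gene lay close together. The first fell short of the threshold without 2N replicate 3.

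On chromosome 1D, TraesCS1D02G315000 had 11.1, 9.43 and 19.8 TPM in 0N and 1.68, 4.38 and 4.05 TPM in 2N (log2 fold change -1.89 ± 0.40). TraesCS1D02G315100 had 10.8, 7.89 and 15.3 TPM in 0N and 4.91, 0.76 and 2.09 TPM in 2N (-2.03 ± 0.57). These genes varied more than 2-fold among the 2N libraries. They varied in opposite ways: 2N replicate 1 was the lowest of the 3 for the first and the highest for the second. Both had estimated counts that were not whole numbers in all 6 libraries, and the 1D cluster together had 8.02, 6.05 and 6.91 TPM in 2N. The part of read division between these copies in their opposite variation was not tested. The third gene, TraesCS1D02G315200, had 4.23, 4.67 and 8.43 TPM in 0N and 1.43, 0.91 and 0.77 TPM in 2N (-2.35 ± 0.34). TraesCS1D02G315000 fell short of the threshold when no filter was used or when 2N replicate 2 or 2N replicate 3 was left out, and TraesCS1D02G315100 passed it without 2N replicate 1 or 2N replicate 2, with the replicate block, with DESeq2 and with limma-trend on TPM.

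On chromosome 1A, TraesCS1A02G314800 had 6.02, 7.21 and 19.5 TPM in 0N and 0.68, 1.51 and 1.91 TPM in 2N (log2 fold change -2.87 ± 0.68). TraesCS1A02G314600 had 5.51, 5.18 and 13.4 TPM against 1.42, 1.30 and 1.01 TPM (-2.57 ± 0.44). In both, 0N replicate 3 stood more than 2 times above the other 0N libraries, yet every 0N library lay above every 2N library. TraesCS1A02G314800 fell short of the threshold when no filter was used, and when 0N replicate 2 or any 1 of the 2N libraries was left out. The other members of the cluster, TraesCS1A02G314500 and TraesCS1A02G314900, were untested, at 0.257 and 0.827 TPM in 0N on average, and their groups overlapped.

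The group 4 chromosomes carried high-form genes whose identifiers lay too far apart to count as a cluster. TraesCS4D02G225400 had 8.97, 9.51 and 12.3 TPM in 0N and 1.13, 1.64 and 0.88 TPM in 2N, with a log2 fold change of -2.98 ± 0.24. TraesCS4A02G063600 had 9.27, 8.42 and 9.89 TPM in 0N and 1.73, 1.02 and 2.75 TPM in 2N (-2.22 ± 0.29). Among the 0N libraries the latter varied least of all tested high-form genes, with an SD of 0.738 TPM. TraesCS4D02G240400 had 4.99, 2.96 and 5.30 TPM against 0.45, 0.77 and 0.59 TPM (-2.71 ± 0.33). Of the 4B genes none passed the filter, and they summed to 0.98 TPM in 0N and 0.23 TPM in 2N.

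Genes at 0 counts in every 2N library were mostly of the low form. 9 members had reads in 0N and 0 in 2N, 8 of them of the low form, and each lay below the filter. Against a floor of 3 counts per library, TraesCS5A02G219500 (6, 7 and 26 reads in 0N) was at least 4.30-fold lower in 2N and TraesCS5D02G227300 (4, 2 and 26.5 reads) at least 3.63-fold. Both bounds rest on 0N replicate 3: without it, a comparison added after the data were seen, the first was at least 2.18-fold lower, and the second was at the floor, which gives no bound. For the remaining genes the 3 libraries together allowed a bound under 2-fold or none. The floor covers counting error only.

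The forms differed in how far apart the groups lay. Low-form transcripts summed to 213, 230 and 338 TPM in 0N and 19.0, 21.5 and 25.1 TPM in 2N, a ratio of means of 11.9. High-form transcripts summed to 98.4, 90.9 and 168 TPM in 0N and 20.2, 24.0 and 21.7 TPM in 2N, a ratio of 5.43. Low-form transcripts were the more abundant in 0N, and the forms were about level in 2N. Low-form transcripts were 2.17, 2.53 and 2.01 times the high form in the 0N libraries and 0.942, 0.896 and 1.16 times in the 2N libraries, without overlap between the groups. The share of the low form in all ELIP transcripts went from 69.0% ± 2.52 to 49.8% ± 3.39 (SD, n = 3). This ratio comes from the contrast on which the family was chosen, and no test is given.

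**Figure D2:**
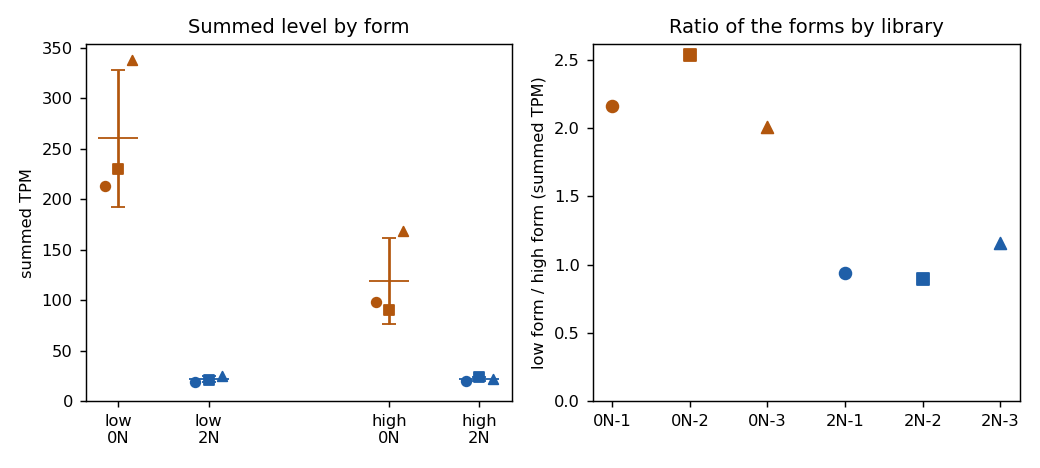
Left, summed TPM of the 20 low-form and 15 high-form genes in each group, with 1 point a library and bars for mean ± SD (n = 3). Right, the ratio of low to high form in each library, 2.01 to 2.53 in 0N and 0.896 to 1.16 in 2N.

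Single genes of the forms overlapped in their fold changes. Over the tested genes, the median log2 fold change was -3.38 for the 8 low-form genes (range -5.32 to -2.26) and -2.46 for the 10 high-form genes (range -2.98 to -1.89), beside 0.00 over all tested genes. 5 of the 8 low-form genes lay below the lowest high-form value. These were the 3 genes of the 5B cluster, TraesCS5A02G219400 and TraesCS5D02G227500. The other 3 lay within the range of the high form.

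The files give no coordinates, and chromosome and order are read from the identifier. By this order, 17 low-form genes fell into clusters on 5A (6 genes), 5B (4) and 5D (7), and 9 high-form genes into clusters on 1A (4), 1B (2) and 1D (3). Members of a cluster follow each other at steps of at most 20 gene numbers. The 5B cluster carried 57.1% ± 3.35 of all ELIP TPM in 0N and 38.5% ± 2.39 in 2N (SD, n = 3). The 5D cluster had 8.46% and 8.87%, and the 5A cluster 2.30% and 1.16%. The homoeologous clusters of group 5 thus differed widely in level, at 216 TPM (5B), 31.5 TPM (5D) and 8.92 TPM (5A) in 0N.

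In 2N the clusters of group 5 stood at 16.9 TPM (5B), 3.92 TPM (5D) and 0.50 TPM (5A), which kept their order. The clusters of group 1 lay closer together, at 43.6 TPM (1B), 30.5 TPM (1D) and 20.02 TPM (1A) in 0N. In each 0N library 1B was the highest and 1A the lowest. Across the 0N libraries, 1D at 22.0 to 43.5 TPM overlapped both 1B at 34.3 to 61.2 TPM and 1A at 12.8 to 34.2 TPM. In 2N they stood at 8.05, 6.99 and 3.04 TPM, and the share of group 1 in all ELIP TPM was 24.3% ± 2.99 in 0N and 41.4% ± 4.13 in 2N (SD, n = 3). The division of reads among such copies is uncertain. Estimated counts were not whole numbers in at least 1 library for 19 of the 35 genes, including all 9 of group 1. The leading 5B genes, TraesCS5B02G218500 and TraesCS5B02G218200, had such counts in all 6 libraries. Over all genes, 45.1% of count values were not whole. Where reads were divided within a cluster, its sum is firmer than its single genes. Reads divided between homoeologous clusters would make the sums uncertain too, and the counts do not show which was the case. The labels do not give the strandedness of the libraries, so sense and antisense reads at a locus may be mixed.

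Genes next to the members were called lower about as often as genes in general. 262 other genes lay between members or within 10 gene numbers of one, of which 191 were tested. 16 were lower, 8.38%, near the 7.93% of all tested genes, and 17 were higher. Their log2 fold changes ran from -1.80 to 1.79 with a median of 0.08, and none reached the member that differed least, at -1.89. The family was chosen for its falls in this contrast, so nothing is read from the gap between members and neighbours. 6 of these genes lay between members of a cluster. The tested ones were TraesCS5B02G218100, at 0.00 on the log2 scale, and TraesCS5D02G227200, at -0.53, and neither passed the threshold.

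**Figure D3:**
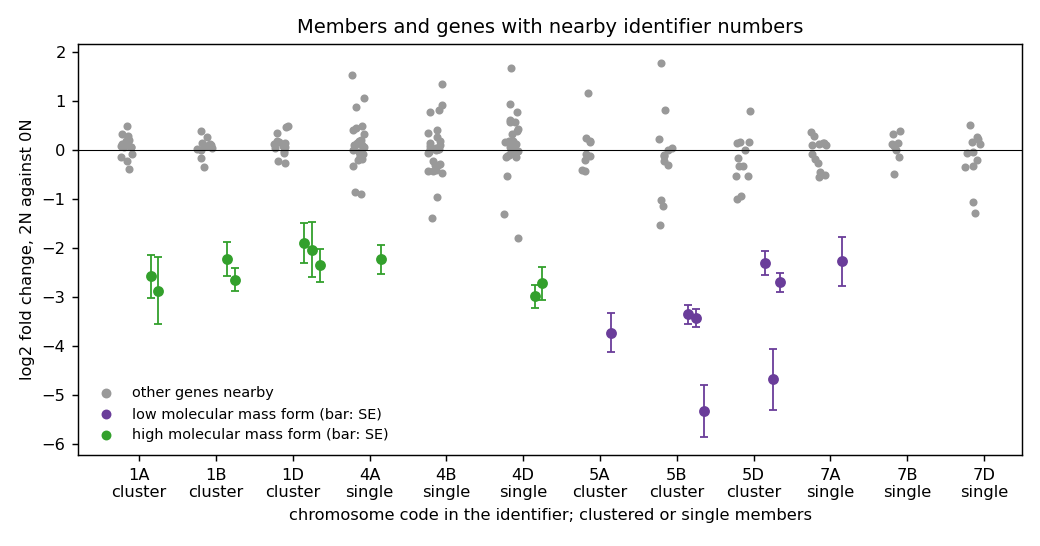
Log2 fold change, 2N against 0N, of tested ELIP genes (coloured by form, bars ± SE) and of tested genes with nearby identifier numbers (grey), by chromosome code. The members lie at -1.89 to -5.32 and the neighbours at -1.80 to 1.79. The family was chosen on this contrast, the neighbours were not.

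0N replicate 3 had more ELIP transcript than its fellows. It was the highest 0N library in 27 of the 34 genes with a count, including all 18 tested genes, against 32.8% of all tested genes. Its sum was 1.52 times the mean of the other 0N libraries for the low form and 1.78 times for the high form. The same library had 1.72 times their mean for the chlorophyll a-b binding proteins and 2.15 times for the Rubisco small subunit. The part of this library's green tissue transcripts in its ELIP level was not tested. In 0N replicates 1 and 2, chlorophyll a-b binding proteins were at 159 and 105 TPM and the Rubisco small subunit at 87.0 and 59.4 TPM. ELIPs were at 311 and 321 TPM in these libraries. There the high form was at 98.4 and 90.9 TPM, or 55.6 and 54.9 CPM, and the low form at 213 and 230 TPM. Nothing is read from the order of 2 libraries.

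The gene lists from here on were chosen with earlier results of these data known, so their shares and p-values are a description. Of the nearest relatives of ELIPs 1 gene passed the threshold. The list held the one-helix proteins OHP1 and OHP2, the stress enhanced proteins and the light-harvesting-like protein 3, small thylakoid proteins of the same superfamily. 1 of 12 tested genes was lower, 8.33%, near the 7.93% of all tested genes, and 0 were higher by edgeR's quasi-likelihood test, with a median log2 fold change of -0.41. The gene was TraesCS2A02G523700, similar to stress enhanced protein 2, which went from 2.79, 2.47 and 3.41 CPM to 1.26, 1.40 and 1.69 CPM (log2 fold change -0.99 ± 0.23, adjusted p = 0.0076 by edgeR). Library totals gave 3 lower genes and limma-trend on TPM 4, and leaving out 2N replicate 1 or 2N replicate 2 gave 2. The list summed to 82.7, 72.1 and 88.1 TPM in 0N and 56.2, 69.0 and 61.6 TPM in 2N. ELIPs were 3.76 to 5.74 times this sum in 0N and 0.659 to 0.760 times in 2N, a ratio that also carries the choice of the family.

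Chlorophyll a-b binding proteins form the antenna of the photosystems. Of 75 genes, 6 more than in the marker list above, 38 were tested. 18 of these were lower, 47.4% against 7.93% of all tested genes, 0 were higher and 20 did not pass, with a median log2 fold change of -1.16. TraesCS2A02G204800, of the LHCII type III antenna, had 4.40, 4.94 and 5.17 CPM in 0N and 2.10, 2.04 and 1.45 CPM in 2N (log2 fold change -1.37 ± 0.19, adjusted p = 0.000189 by edgeR). TraesCS5A02G350600, similar to chlorophyll a-b binding protein 1, fell by 1.87 ± 0.31 (log2, adjusted p = 0.0012 by edgeR).

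The count of lower antenna genes depended on single libraries. When 0N replicate 1 was left out it was 8, and when 0N replicate 2 was left out it was 28. It was 9 on leaving out 0N replicate 3, 6 on leaving out 2N replicate 1 and 5 on leaving out 2N replicate 3. The summed level, 159, 105 and 227 TPM in 0N and 55.4, 94.0 and 71.9 TPM in 2N, left a narrow gap between the groups. ELIP transcripts were 1.96, 3.07 and 2.23 times the antenna transcripts in the 0N libraries and 0.709, 0.484 and 0.652 times in the 2N libraries. Since ELIPs were chosen for their difference between these libraries, nothing is read from the separation of the groups in this ratio.

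Among subunits of the photosystems, of the oxygen-evolving complex and of Rubisco, 12 of 60 tested genes were lower, beside 7.93% of all tested genes, and 0 higher (median log2 fold change -0.80). 6 genes of this list are also antenna genes. All 3 tested genes of the photosystem II 10 kDa polypeptide were lower, among them TraesCS6B02G390600, from 5.95, 3.98 and 7.40 CPM to 1.98, 2.79 and 2.42 CPM (log2 fold change -1.27 ± 0.23, adjusted p = 0.0019 by edgeR). TraesCS3B02G392800, similar to the photosystem II protein PSB28, fell by 1.26 ± 0.26 (log2, adjusted p = 0.0040 by edgeR). 0 of the 7 tested genes of the Rubisco small subunit passed. Leaving out 0N replicate 2 gave 22 lower genes of the list. Leaving out 0N replicate 3 gave 7, 2N replicate 1 gave 6 and 2N replicate 3 gave 4.

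Of 51 tested genes of chlorophyll synthesis, 5 were lower, 9.80%, near the 7.93% of all tested genes, and 0 were higher (median log2 fold change -0.19). 2 of 6 genes similar to geranylgeranyl diphosphate reductase, which makes the phytyl tail, were lower. The 6 genes together had 93.7, 103 and 105 CPM in 0N and 91.9, 90.1 and 94.6 CPM in 2N, with overlap between the groups. TraesCS6B02G336300 fell by 1.05 ± 0.21 and TraesCS6A02G307700 fell by 1.31 ± 0.29 on the log2 scale (adjusted p = 0.0038 and 0.0062 by edgeR). Leaving out 0N replicate 1, 0N replicate 3 or 2N replicate 1 gave 2 lower genes of synthesis, leaving out 2N replicate 3 gave 3, and leaving out 2N replicate 2 gave 9.

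Of 18 tested genes of chlorophyll breakdown, 11 were lower, 61.1% beside 7.93% of all tested genes, and 0 were higher (median log2 fold change -0.80). The other 7 did not pass, both tested genes similar to chlorophyllase-2 among them. The lower genes held all 3 genes similar to STAY-GREEN, which removes magnesium from chlorophyll, all 3 similar to pheophytinase, which cuts off the phytyl tail, both similar to the chlorophyll b reductase NYC1, and 2 of 3 similar to pheophorbide a oxygenase, which opens the ring. TraesCS5D02G325900, similar to STAY-GREEN, went from 18.4, 16.0 and 19.2 CPM to 7.81, 7.33 and 8.95 CPM (log2 fold change -1.16 ± 0.12, adjusted p = 1.1e-05 by edgeR). Its copy TraesCS5A02G319900 went from 19.97, 19.8 and 23.1 CPM to 11.2, 11.1 and 11.1 CPM (-0.91 ± 0.10, adjusted p = 3.0e-05 by edgeR). The count stayed between 9 and 13 when 1 library was left out.

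Carotenoids protect the same membranes and are bound by ELIPs. 11 of 36 tested genes of carotenoid and xanthophyll synthesis were lower, 30.6% beside 7.93% of all tested genes, and 0 higher (median log2 fold change -0.23). Phytoene synthase starts the pathway: all 3 genes similar to synthase 3 were lower, 2 of 3 similar to synthase 2 and 0 of 2 similar to synthase 1. The lower genes also held all 3 similar to zeaxanthin epoxidase, which makes violaxanthin. Of violaxanthin de-epoxidase, which reverses that step in strong light, 1 of 2 was lower. For phytoene desaturase, zeta-carotene desaturase, prolycopene isomerase, lycopene beta cyclase and carotene epsilon-monooxygenase, 0 of 3 tested genes each were lower. TraesCS5D02G365100, of phytoene synthase 3, went from 6.66, 7.72 and 8.16 CPM to 2.94, 2.27 and 2.72 CPM (log2 fold change -1.51 ± 0.16, adjusted p = 1.9e-05 by edgeR). TraesCS2A02G396200, similar to beta-carotene 3-hydroxylase, fell by 1.43 ± 0.18 (log2, adjusted p = 6.6e-05 by edgeR). Without 0N replicate 1, without 2N replicate 1 or with DESeq2, 6 genes of the list were lower.

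Of light receptors and factors of light signalling few genes passed the threshold. 6 of 87 tested genes were lower, 6.90% beside 7.93% of all tested genes, and 2 were higher (median log2 fold change -0.09). HY5 is a transcription factor that in Arabidopsis activates ELIP genes in light. Of 5 tested HY5-like genes 1 was lower, and the 7 HY5-like genes together had 42.6, 45.8 and 60.3 CPM in 0N and 35.1, 42.9 and 34.5 CPM in 2N, with overlap between the groups. The 9 tested genes of phytochromes A, B and C did not pass the threshold, nor did the 3 tested genes similar to GLK2, of a family of factors for chloroplast development.

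In the same list, TraesCS6D02G133100, similar to B-box protein 22, fell by 1.13 ± 0.21 (log2, adjusted p = 0.0018 by edgeR). TraesCS5B02G380200, similar to a phytochrome interacting factor of the bHLH class, rose from 0.238, 0.121 and 0.176 CPM to 0.781, 0.756 and 0.786 CPM (log2 fold change 2.07 ± 0.44, adjusted p = 0.0051 by edgeR). These were 4, 2 and 3 reads against 13 in each 2N library. Without 0N replicate 3, 2 genes of the list were lower, and 3 with DESeq2.

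In flavonoid synthesis, which light also induces through HY5 in Arabidopsis, 14 of 35 tested genes were lower, 40.0% beside 7.93% of all tested genes, and 1 was higher (median log2 fold change -0.54). 4 of the 7 tested genes similar to chalcone synthase, the first enzyme of the pathway, were lower. TraesCS2A02G527700 among them went from 26.3, 21.2 and 20.8 CPM to 10.8, 7.97 and 8.16 CPM (log2 fold change -1.34 ± 0.14, adjusted p = 1.1e-05 by edgeR). The search words also took in enzymes off this pathway: 3 of the 14 were similar to 2-hydroxyisoflavanone dehydratase, such as TraesCS6A02G033400, which fell by 3.21 ± 0.42 (log2, adjusted p = 0.000102 by edgeR), and 4 to a C-glucosyltransferase. In this list 0N replicate 3 was the lowest 0N library, at 216 TPM in all beside 281 and 235 TPM, whereas for ELIPs it was the highest.

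**Figure D4:**
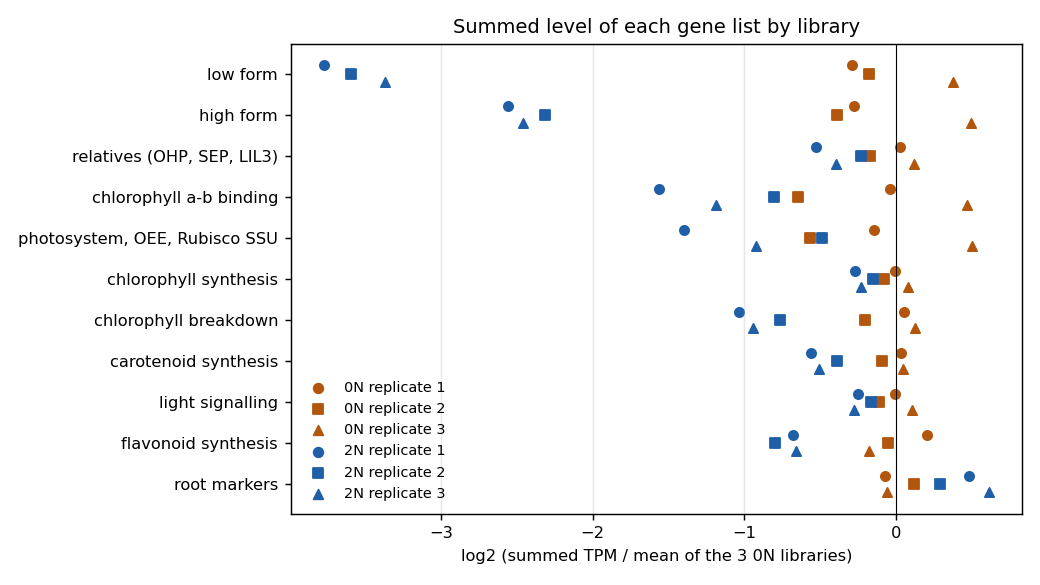
Summed TPM of each gene list in each library, as log2 of its ratio to the mean of the 3 0N libraries. Points are libraries, coloured by group and shaped by replicate. The ELIP forms lie farthest to the left in 2N, the antenna and photosystem lists spread widest among the 0N libraries, and the root marker list lies to the right in 2N.

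Of the root markers, 5 genes were higher in 2N, 4 of Casparian strip membrane proteins and 1 of SCARECROW. Over 16 tested genes of Casparian strip membrane proteins, SHORT-ROOT, SCARECROW and root WUSCHEL-related homeobox factors, 5 were higher, beside 7.57% of all tested genes, and 0 lower (median log2 fold change 0.43). TraesCS7D02G324700, similar to Casparian strip membrane protein 2, rose from 11.6, 13.9 and 11.2 CPM to 19.9, 19.0 and 22.4 CPM (log2 fold change 0.74 ± 0.11, adjusted p = 0.00041 by edgeR), and TraesCS2D02G379300, similar to protein 1, by 0.66 ± 0.12 (adjusted p = 0.0015 by edgeR). The list summed to 173 to 198 TPM in 0N and 223 to 279 TPM in 2N. Relative to it, ELIP transcripts were 1.62 to 2.90 times in 0N and 0.154 to 0.204 times in 2N. This ratio carries both the choice of the family and the higher root markers in 2N, and nothing is read from it. The part of these marker differences in the ELIP difference was not tested.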

How the data were processed

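The authors deposited 1 table of estimated counts (expected counts, not whole in 45.1% of values) and TPM per gene. HISAT and Bowtie2 are named in the submitters' processing notes, with no version. Of the counting program, the genome build and the annotation nothing is said in the sources used. Counts were rounded to whole numbers, scaled by TMM and fitted for 54313 genes that passed filterByExpr (minimum count 10, minimum total 15) with edgeR 4.0.16 in R 4.3.3, by its quasi-likelihood test with Benjamini-Hochberg adjustment at 0.05 and group as the only term. The fit was tested on simulated data in which only genes above a minimum mean count were changed. That test does not cover genes with few counts. Standard errors are the log2 fold change divided by the root of F, an approximation. Levels are compared between genes in the deposited TPM only. Libraries held 16208306 to 16426359 (0N) and 17234841 to 17645560 (2N) counts, and under about 10 counts a library the precision is low. The family and the gene lists were chosen with earlier results of these data known. The lists were taken by words in the protein names, so they hold some mismatches, such as 9 translocon genes among chlorophyll synthesis. Tested members with a mean of at least 1 CPM were named with all values, and in each list the 2 genes with the smallest p. TraesCS5D02G227500 and TraesCS7A02G213700, tested but below that mean, were named as well. DESeq2 1.42.0, limma 3.58.1, library totals, other filters, a replicate block and leaving out each library were tried as alternatives.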

Additional observations from a re-analysis of the deposited data

How the results depend on the processing

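In every alternative tried, 0 ELIP genes were higher and no tested one had a positive log2 fold change. The count of lower ELIP genes was 17 with library totals in place of TMM, 22 of 34 without a filter, 16 of 17 with a stricter filter, 21 of 21 with DESeq2, 18 with limma-trend on log2(TPM + 1), and 14 to 17 when 1 library was left out. The log2 ratio of the summed level ran from -3.11 to -2.72 when 1 library was left out and was -2.83 without the most abundant gene. Same-numbered libraries did not deviate together (correlations of -0.01, -0.11 and 0.03), and differently numbered ones gave -0.10 to 0.11. With 3 libraries a group, this cannot show whether same-numbered libraries shared a culture or a batch. With the replicate block 18 ELIP genes, 3845 genes in all were lower and 3454 higher. Over all genes, the 4306 lower and 4109 higher genes (51.2% lower) became 6208 and 2920 with library totals (68.0% lower), where the median log2 fold change of all genes was -0.09, and 5551 and 2489 with limma-trend on TPM (69.0%). When 1 library was left out, 3082 to 4100 genes were lower and 2622 to 4285 higher. The same runs gave 6 to 9 lower genes for carotenoids, 5 to 28 for antenna proteins, 2 to 9 for chlorophyll synthesis, 9 to 13 for breakdown, 10 to 13 for flavonoids, 2 to 6 for light signalling, 4 to 22 for photosystem subunits and 1 to 2 for the relatives. DESeq2 gave 6 for carotenoids and 3 for light signalling. For the relatives, library totals gave 3 and limma-trend on TPM gave 4. The cause of these shifts was not tested. Depth limits the 17 untested ELIP genes, whose group means were all under 1 CPM.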
